A study of Mus musculus with 8 samples.

Results

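The cadherins and protocadherins of the mouse array were followed in sorted embryonic midbrain dopaminergic neurons. The members were all genes with a Cdh symbol and number, a Pcdh symbol and number, or a clustered Pcdha, Pcdhb or Pcdhg symbol in the annotated probe table. These were 70 of the 23913 named genes, among them 24 Cdh genes, 11 single protocadherins and 35 clustered protocadherins. Where the table listed several probes for a gene, the brightest stood for it. A member was tested against the reference if its probe was well above background on at least 4 of 8 arrays in either channel, which 60 members passed, and between rostral and caudal pools if it was so in the sample channel, which 58 passed. The 10 members that passed neither filter were Cdh17, Cdh19, Cdh23, Cdh24, Cdh29, Pcdhac1, Pcdhb9, Pcdhb11, Pcdhb19 and Pcdhga5, so the counts over tested members are not counts over the family.

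Cadherins are calcium-dependent adhesion proteins of the cell surface. Classical cadherins bind like cadherins on a neighbouring cell and hold the actin cytoskeleton through catenins; type I members such as Cdh2 (N-cadherin) keep neural tissue together, and type II members label nuclei and circuits of the developing brain in combinations. The single protocadherins of the delta-1 and delta-2 groups act in cell sorting, migration and axon growth, and delta-2 members recruit the actin-regulating WAVE complex. The clustered protocadherins are produced from alternative promoters in neighbouring gene arrays and give single neurons a surface identity for self-recognition.

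All cells came from E14.5 embryos that carried Gfp in 1 allele of Pitx3, written Pitx3(gfp/+), a transcription factor gene of midbrain dopaminergic neurons, so every group shared this allele and there was no Gfp-free genotype. There were 4 pools of Gfp-positive cells from the rostral part of the ventral midbrain and 4 from the caudal part, each from 5 to 7 embryos, with litters spread over the pools. Cells were freed with papain and collected on either of 2 models of flow sorter, with no record of which pool went through which. Each pool was hybridised in Cy3 against 1 common reference in Cy5, pooled Gfp-negative cells of the same specimens, and all values below are log2 ratios of the pool to that reference. The reference is thus 1 control sample whose own spread is not measured, dyes were not swapped, and the labels do not say which rostral and caudal pools shared embryos. Each p-value therefore reflects how much the pools scatter.

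The share of probes flagged as well above background ran from 62.5% to 70.4% for Gfp-positive RNA and from 54.0% to 63.5% for reference RNA. All 6 dopaminergic markers (Th, Slc6a3, Slc18a2, Pitx3, Nr4a2 and Ddc) rose in Gfp-positive cells, with a median log2 ratio of 3.67, and all 7 tested progenitor markers fell. Between the parts, 1 of 6 dopaminergic markers (Slc18a2, -0.56) was called lower in rostral pools. So were 1 of 6 pan-neuronal markers (Tubb3, -0.39) and 1 of 7 tested progenitor markers (Vim, -0.63). Rostral and caudal pools also differed in markers of other cells. Of 6 forebrain and hypothalamic markers, 5 were higher in rostral pools, and their summed signal was 3130 to 7190 in rostral pools, 736 to 843 in caudal pools and 16100 to 18300 in the reference, and Dlx1 was detected above background in 4 rostral and 0 caudal pools, Pmch and Fezf1 in 4 rostral and 1 caudal pool. GABAergic markers went both ways (1 higher and 2 lower in rostral pools of 7), as did glutamatergic markers (1 and 1 of 4). Rostral pool 2 stood apart in mesenchymal genes: Col1a1 was at 3.73 there, against -1.95 to -0.93 in the other rostral pools and -1.41 to -1.20 in caudal pools. The part of these cells in the results below was not tested.

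The first comparison took the mean of the rostral and caudal Gfp-positive groups over the reference. Members moved in both directions. Of the 60 tested, 26 rose, 18 fell and 16 did not pass the test (limma, Benjamini-Hochberg adjusted p below 0.05 over all 18559 genes tested). The same test called 71.5% of all genes, 34.6% higher and 36.9% lower, so 44 of 60 members is close to the background share. The median member was at 0.14 and the median gene at 0.00. A change of at least 2-fold was called for 7 members, against 13.1% of all genes. The 16 without a call were Cdh4, Cdh11, Cdh13, Cdh15, Cdh18, Cdh20, Pcdh15, Pcdha9, Pcdha11, Pcdhb1, Pcdhb8, Pcdhb10, Pcdhb14, Pcdhb17, Pcdhb18 and Pcdhgc5, between -0.22 and 0.28. Clustered protocadherins rose for 18 and fell for 3 of 30, and single protocadherins rose for 2 and fell for 8 of 11; the difference between these subfamilies was not tested. Some members passed the filter through 1 channel only: 12 were above background on fewer than 4 arrays in the reference, 9 of them clustered, and Cdh1 and Pcdh20 in the sample channel. Among members above background on at least 4 arrays in both channels, clustered protocadherins rose for 13 and fell for 3 of 21, and single ones rose for 2 and fell for 7 of 10. In bulk pools, fewer cells of a type and less RNA per cell cannot be told apart.

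**Figure D1:**
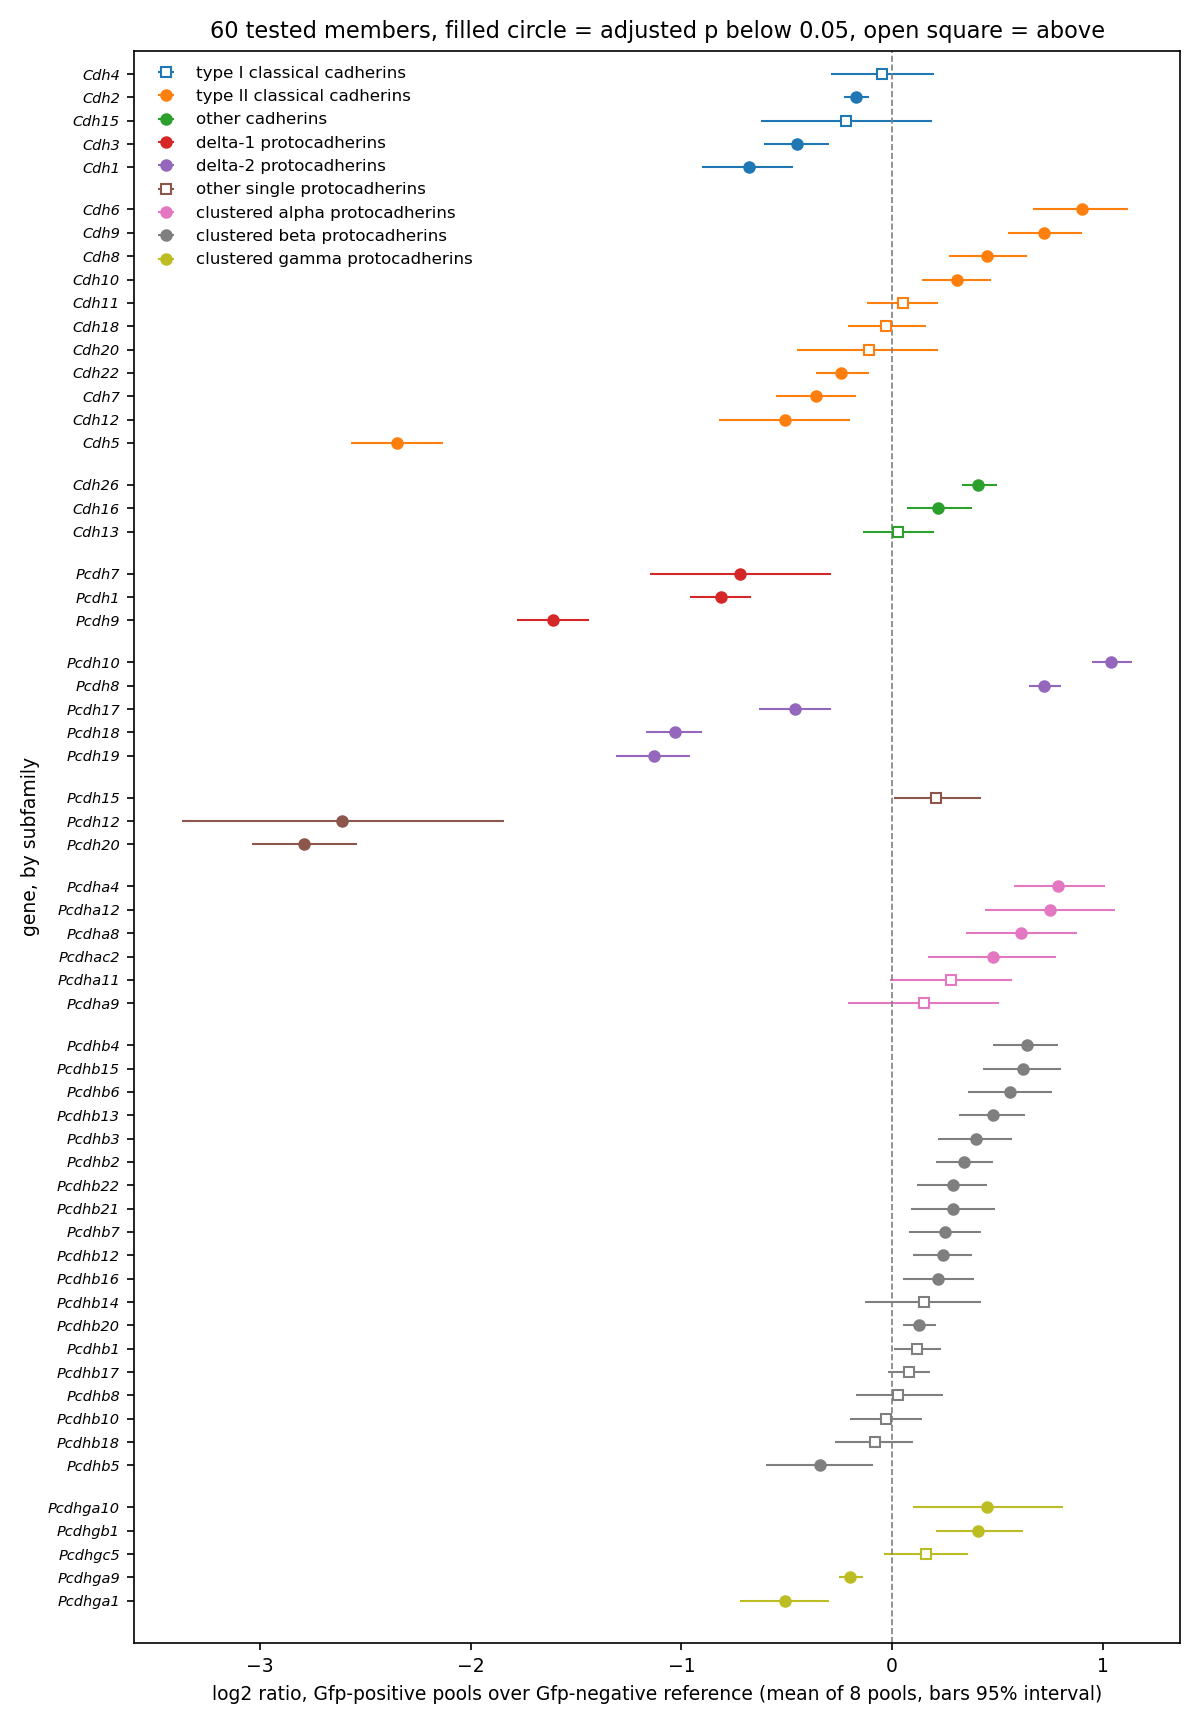
Mean log2 ratio of Gfp-positive pools to the Gfp-negative reference for the 60 tested members (horizontal axis), with 95% intervals from limma over 8 pools, sorted by subfamily (vertical axis, colours). Filled circles passed an adjusted p of 0.05 and open squares did not; Pcdh10 at 1.04 is the highest point and Pcdh20 at -2.79 the lowest.

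Type I classical cadherins rose for 0 and fell for 3 of 5 tested. Cdh2, the main classical cadherin of neural tissue, was at -0.24, -0.24, -0.20 and -0.33 in rostral pools and at -0.06, -0.19, -0.09 and -0.01 in caudal pools. At this table probe all 8 values lay below the reference and the 4 rostral ones below the 4 caudal ones. The fall of Cdh2 was small (-0.17, SE 0.03, adjusted p = 0.000243 in limma). The difference between the parts did not pass the test (rostral minus caudal -0.16, SE 0.05, adjusted p = 0.115). An accession-matched probe outside the table gave -0.33 over the reference. There the parts overlapped, at -0.45 to -0.33 in rostral and -0.39 to -0.15 in caudal pools. Cdh1 (E-cadherin), the epithelial cadherin, fell by 0.68 on the log2 scale (SE 0.10), but only 2 of 8 Gfp-positive pools had its probe well above background, so the size is poorly measured. It was -2.37 in the processed signals of Feature Extraction, to which no offset is added. Cdh3 (P-cadherin) fell by 0.45 (SE 0.07) and by 0.80 in those signals. Cdh15, a cadherin of muscle precursors, did not pass the test (-0.22, SE 0.18). Cdh4 (R-cadherin) did not pass either at its table probe (-0.05, SE 0.11), yet accession-matched probes outside the table gave 0.41 and 0.60, both called higher.

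Among 11 tested type II cadherins, 4 rose and 4 fell. The rises were in Cdh6, Cdh9, Cdh8 and Cdh10, and the falls in Cdh5, Cdh12, Cdh7 and Cdh22. Cdh6, a cadherin of early neural compartments, was at 0.66, 0.89, 0.10 and 0.94 in rostral pools and at 0.98, 1.16, 1.07 and 1.36 in caudal pools. Every pool was above the reference, and every caudal pool above every rostral one. The rise was 1.86-fold (0.90, SE 0.10, adjusted p = 2.6e-05), and the rostral minus caudal difference did not pass the test (-0.49, SE 0.20, adjusted p = 0.22). Cdh9, known from hippocampal and retinal synapses, rose 1.65-fold (0.72, SE 0.08), or 1.43 on the log2 scale in the processed signals; 6 of 8 arrays had a reference signal well above background. Cdh12 fell by 0.51 (SE 0.14), but was not called after median centring of the arrays (-0.15, adjusted p = 0.345, or -0.28 relative to that setting's median gene). Cdh11, a cadherin of mesenchyme and brain, did not pass the test (0.05, SE 0.08, adjusted p = 0.575) at a table probe well above background in 4 of 8 pools, whereas a probe outside the table, above background in all 8, gave 0.44 (adjusted p = 0.000417).

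Cdh5 (VE-cadherin), the junction cadherin of endothelium, had some of the lowest ratios of the family. It was at -2.42, -2.16, -2.98 and -2.44 in rostral pools and at -2.01, -2.28, -2.42 and -2.11 in caudal pools. The fall was 5.11-fold (-2.35, SE 0.10, adjusted p = 1.7e-08), with overlapping parts. Pcdh12, a protocadherin of endothelium and placenta, was at -1.51, -3.38, -2.59 and -3.15 in rostral pools and at -1.81, -1.68, -1.98 and -4.74 in caudal pools, a 6.09-fold fall (-2.61, SE 0.34). Its scatter was the widest among tested members. Of 6 tested endothelial markers, 5 fell and 0 rose; their summed signal was 5530 to 10200 in rostral pools, 6680 to 9140 in caudal pools and 24100 to 27100 in the reference. Pecam1 was not called (0.13) and Tek was well above background in 1 of 8 pools. The part of endothelial cells in the values of Cdh5 and Pcdh12 was not tested.

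Of the 3 tested cadherins outside both classical types, Cdh26 and Cdh16 rose. Cdh26 was at 0.49, 0.37, 0.42 and 0.37 in rostral pools and at 0.48, 0.27, 0.38 and 0.52 in caudal pools, nearly the same level throughout (0.41, SE 0.04). Cdh16, the kidney cadherin, rose by 0.22 (SE 0.07). Its reference signal was not well above background on any array, so the size is poorly measured. Cdh13 (T-cadherin), which is anchored to the membrane by a lipid, did not pass the test (0.03, SE 0.08). It was at -0.68, 0.02, -0.13 and -0.13 in rostral pools and at 0.45, 0.03, 0.24 and 0.43 in caudal pools. The parts did not overlap, and their difference did not pass the test (-0.51, SE 0.15, adjusted p = 0.0858).

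All 3 delta-1 protocadherins among the members fell. Pcdh11x, a delta-1 protocadherin whose symbol lies outside the naming pattern, rose slightly (0.19, SE 0.07, adjusted p = 0.036 in limma). Pcdh9 was at -1.30, -1.48, -1.63 and -1.54 in rostral pools and at -1.89, -1.43, -1.63 and -1.98 in caudal pools. All were well below the reference, and the parts overlapped (3.06-fold lower, -1.61, SE 0.08, adjusted p = 4.3e-08). Its other table probe, above background in 2 of 8 pools and dim in the reference throughout, lay between -0.31 and -0.13 in rostral pools and between -0.10 and 0.09 in caudal pools, and the mean over both probes was -0.86. Pcdh1 fell by 0.81 (SE 0.06) and Pcdh7 by 0.72 (SE 0.19). Pcdh7 ranged from -1.34 to 0.08 in rostral pools and from -1.59 to 0.16 in caudal pools, and its other table probe, dim in the reference on every array, was not called (0.16), and the mean over both was -0.28 (adjusted p = 0.0166). Pcdh20, a single protocadherin outside the delta groups, had the lowest mean ratio of all members, between -3.16 and -2.19 in rostral pools and between -2.99 and -2.83 in caudal pools. All 8 arrays had a clear reference signal but only 1 of 8 Gfp-positive pools did, so the 6.92-fold fall (-2.79, SE 0.11) measures its size poorly. In the Feature Extraction processed signals it was -5.38.

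The 5 delta-2 protocadherins all passed both tests. The test against the reference called 71.5% of all genes, and the test between the parts 6.30%. Against the reference, Pcdh10 and Pcdh8 rose and Pcdh17, Pcdh18 and Pcdh19 fell; between the parts, 4 were higher in rostral pools and Pcdh8 was lower. Their proximal promoters are shown because all 5 were called between the parts, though not all in the same direction. Each covers 300 bases around the annotated start on the strand of the gene, from RefSeq on build GRCm38.p6: chr3:45378148-45378447 on the plus strand for Pcdh10, chr14:84443313-84443612 on the plus strand for Pcdh17, chr3:49757267-49757566 on the minus strand for Pcdh18, chrX:133688944-133689243 on the minus strand for Pcdh19 and chr14:79771263-79771562 on the minus strand for Pcdh8. Capitals mark matches to ATTGGNT, an inverted CCAAT box with 2 more bases.
Pcdh10: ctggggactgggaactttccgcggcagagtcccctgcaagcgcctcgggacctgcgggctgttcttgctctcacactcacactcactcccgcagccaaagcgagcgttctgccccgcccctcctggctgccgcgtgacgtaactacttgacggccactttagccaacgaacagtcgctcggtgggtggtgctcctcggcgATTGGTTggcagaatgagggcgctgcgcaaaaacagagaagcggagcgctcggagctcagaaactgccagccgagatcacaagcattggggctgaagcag
Pcdh17: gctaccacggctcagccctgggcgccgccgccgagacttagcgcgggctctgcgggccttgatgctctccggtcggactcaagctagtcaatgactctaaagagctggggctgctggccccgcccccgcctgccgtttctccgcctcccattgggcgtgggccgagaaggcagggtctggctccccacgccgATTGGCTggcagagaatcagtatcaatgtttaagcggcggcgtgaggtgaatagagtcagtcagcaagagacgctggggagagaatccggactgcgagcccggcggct
Pcdh18: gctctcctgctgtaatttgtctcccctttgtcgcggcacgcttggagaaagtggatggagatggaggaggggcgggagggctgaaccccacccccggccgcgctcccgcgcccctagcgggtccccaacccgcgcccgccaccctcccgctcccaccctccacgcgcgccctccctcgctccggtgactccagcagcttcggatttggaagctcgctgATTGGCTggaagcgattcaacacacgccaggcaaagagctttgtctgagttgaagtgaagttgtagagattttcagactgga
Pcdh19: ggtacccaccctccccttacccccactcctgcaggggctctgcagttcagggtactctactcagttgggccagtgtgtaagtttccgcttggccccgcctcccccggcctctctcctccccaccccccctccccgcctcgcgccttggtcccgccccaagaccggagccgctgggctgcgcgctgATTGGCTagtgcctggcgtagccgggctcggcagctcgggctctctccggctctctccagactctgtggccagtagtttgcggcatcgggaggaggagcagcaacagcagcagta
Pcdh8: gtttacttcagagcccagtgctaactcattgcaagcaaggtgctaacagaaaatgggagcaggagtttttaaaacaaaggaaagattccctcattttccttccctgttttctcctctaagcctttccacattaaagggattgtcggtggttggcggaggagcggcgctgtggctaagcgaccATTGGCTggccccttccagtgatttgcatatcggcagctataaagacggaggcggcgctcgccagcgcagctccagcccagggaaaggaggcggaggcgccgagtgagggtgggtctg

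The motif ATTGGNT stood once in each of the 5, on the strand of the gene, its first base at -50 in Pcdh10, -58 in Pcdh17, -32 in Pcdh18, -65 in Pcdh19 and -68 in Pcdh8, counted from the annotated start. It was chosen after these sequences were seen. Both strands were searched and any overlap of motifs was allowed. It occurred in 8 of 22 members that have a promoter in the table and lie off chromosome 18, and in 15.3% of all 32851 promoters of this length. The other motifs searched were TAATCC, the core read by Otx and Pitx factors (7.06% of promoters), CAAGTG, read by the Nkx2 family (13.6%), CACCTG, an E-box of Snail and Zeb repressors (20.2%), and AAGGTCA, read by the Nr4a family (4.72%). None of these letters occurred in the 5 windows, which says only that. The delta-2 windows held 54.3% to 67.7% G and C, and 14 to 26 CpG, against medians of 52.7% and 7 over all promoters.

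How rostral pools differ from caudal ones is the question by which the series addresses subsets of dopaminergic neurons. Of 58 tested members, 8 were higher and 2 lower in rostral pools. The same test called 6.30% of all 18099 genes, 3.51% higher and 2.79% lower. All 4 rostral ratios lay above all 4 caudal ones for 10 members (6.45% of all genes) and below them for 5 (6.06%). The median member difference was 0.12 and the median over all genes 0.01. The called members were Cdh7, Pcdh17, Pcdh19, Pcdh15, Pcdh10, Pcdh18, Pcdhb2 and Pcdhb20 on the rostral side and Cdh22 and Pcdh8 on the caudal side, so delta-2 protocadherins gave 5 of the 10. Forebrain and hypothalamic markers were higher in rostral pools too (median difference 2.72), and their part in the members' differences was not tested.

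**Figure D2:**
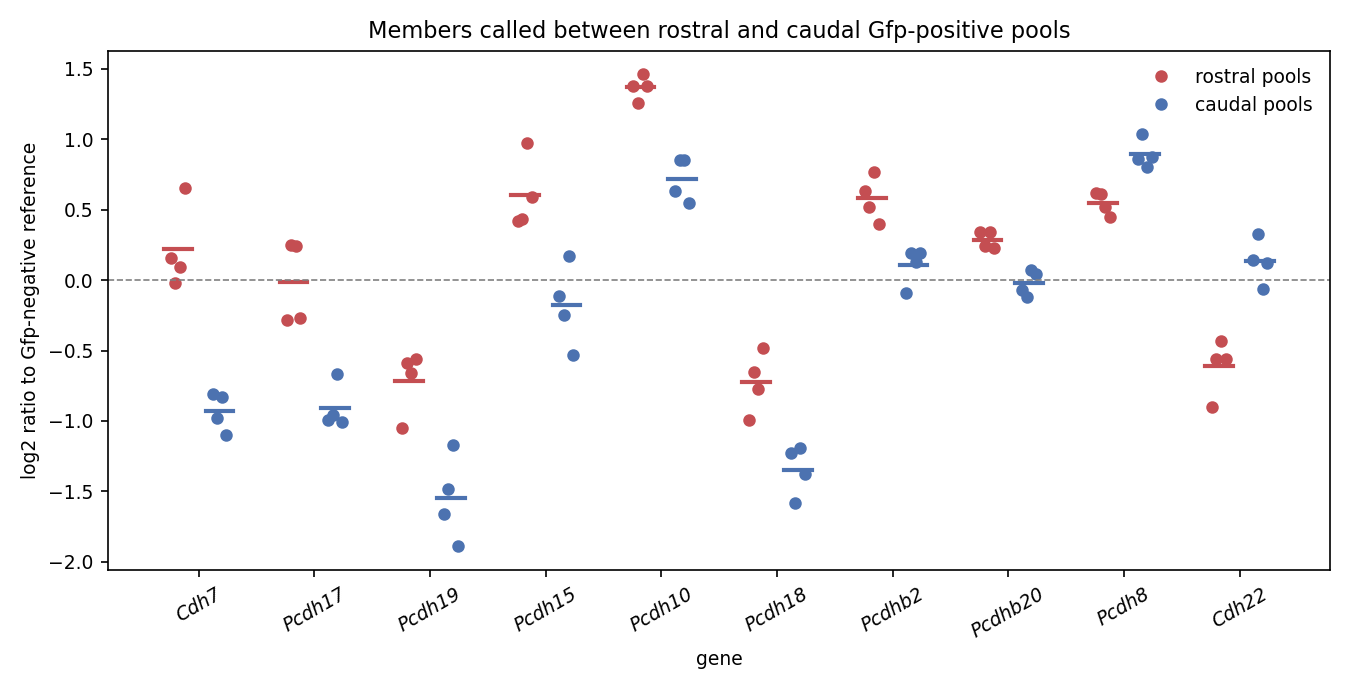
Log2 ratio to the Gfp-negative reference (vertical axis) of the 10 members called between the parts, 1 point per pool, rostral pools in red left of caudal pools in blue, with short lines at the means. In each of the 10 the rostral and caudal points do not overlap, and the Cdh7 points sit between -0.02 and 0.65 in rostral pools and between -1.10 and -0.81 in caudal pools.

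Pcdh10, a delta-2 protocadherin needed for striatal and thalamocortical axon growth in mice, was at 1.38, 1.26, 1.46 and 1.38 in rostral pools and at 0.63, 0.85, 0.85 and 0.55 in caudal pools. Both parts lay above the reference, rostral pools by more. In the main fit it had the largest rise of any member over the reference (2.06-fold, 1.04, SE 0.04, adjusted p = 1.1e-08). This rank depended on the processing. In the Feature Extraction processed signals Pcdh10 was at 1.00, below Pcdha8 (2.62), Pcdhb2 (1.68), Pcdha4 (1.54) and Cdh9 (1.43), among others. Under median centring Cdh6 lay above Pcdh10. Pcdh10 was 1.57-fold higher in rostral than in caudal pools (0.65, SE 0.08, adjusted p = 0.00249). Its other table probe gave 1.44 over the reference and 0.74 between the parts, both called in a fit over all probes. Pcdh8, which in rat neurons promotes removal of N-cadherin from synapses, was at 0.62, 0.61, 0.52 and 0.45 in rostral pools and at 0.86, 1.04, 0.80 and 0.87 in caudal pools. It too was above the reference everywhere (0.72, SE 0.03), but lower in rostral pools, by 1.27-fold (-0.34, SE 0.07, adjusted p = 0.0152).

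Pcdh17, which in mice acts in corticobasal ganglia synapses and in axon extension, was at -0.28, 0.25, 0.24 and -0.27 in rostral pools and at -0.99, -0.96, -0.67 and -1.01 in caudal pools. The rostral values fell on either side of the reference and the caudal values all below it. The difference was 1.86-fold (0.89, SE 0.15, adjusted p = 0.00804). Pcdh18 was at -0.99, -0.65, -0.77 and -0.48 in rostral pools and at -1.23, -1.58, -1.19 and -1.38 in caudal pools, a 1.54-fold difference (0.62, SE 0.12, adjusted p = 0.0148). Pcdh19, the X-linked protocadherin mutated in a human epilepsy, was at -1.05, -0.59, -0.66 and -0.56 in rostral pools and at -1.66, -1.48, -1.17 and -1.89 in caudal pools (0.84, SE 0.16, adjusted p = 0.0139). For both genes every pool lay below the reference and the caudal pools lay lowest. With median centring of the arrays in place of loess, Pcdh17 was no longer called against the reference (-0.17, adjusted p = 0.0706). Relative to that setting's median gene, which moved to 0.13, it was at -0.29. With the replicate number as a block, Pcdh18 was no longer called between the parts (adjusted p = 0.0548), nor was Pcdh8 without the intensity trend (adjusted p = 0.0562).

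Cdh7, a type II cadherin that marks neural crest and brain subdivisions in the chick, had the largest difference between the parts. It was at 0.16, -0.02, 0.09 and 0.65 in rostral pools and at -0.81, -0.98, -0.83 and -1.10 in caudal pools. Rostral pools lay near or above the reference and caudal pools well below it. The difference was 2.22-fold (1.15, SE 0.17, adjusted p = 0.00509). Cdh22, a type II cadherin known from the pituitary and brain, went the other way: it was at -0.90, -0.56, -0.43 and -0.56 in rostral pools and at 0.14, 0.33, -0.06 and 0.12 in caudal pools, 1.67-fold lower in rostral pools (-0.74, SE 0.11, adjusted p = 0.0055). Caudal pools were level with the reference and rostral pools below it. The mean over both parts, -0.36 for Cdh7 and -0.24 for Cdh22, thus describes neither part; after median centring neither mean was called (-0.02, adjusted p = 0.854, and -0.14, adjusted p = 0.0535), though relative to that setting's median gene Cdh7 was at -0.15 and Cdh22 at -0.27. Cdh8, a type II cadherin of cortical and subcortical projection systems, was just outside the threshold, at 0.75, 1.11, 0.48 and 0.72 in rostral pools and at -0.08, 0.10, 0.28 and 0.25 in caudal pools (0.63, SE 0.16, adjusted p = 0.0544). Its other table probe averaged 0.05 in rostral and 0.10 in caudal pools. That probe was above background in 3 of 8 pools and dim in the reference throughout.

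**Figure D3:**
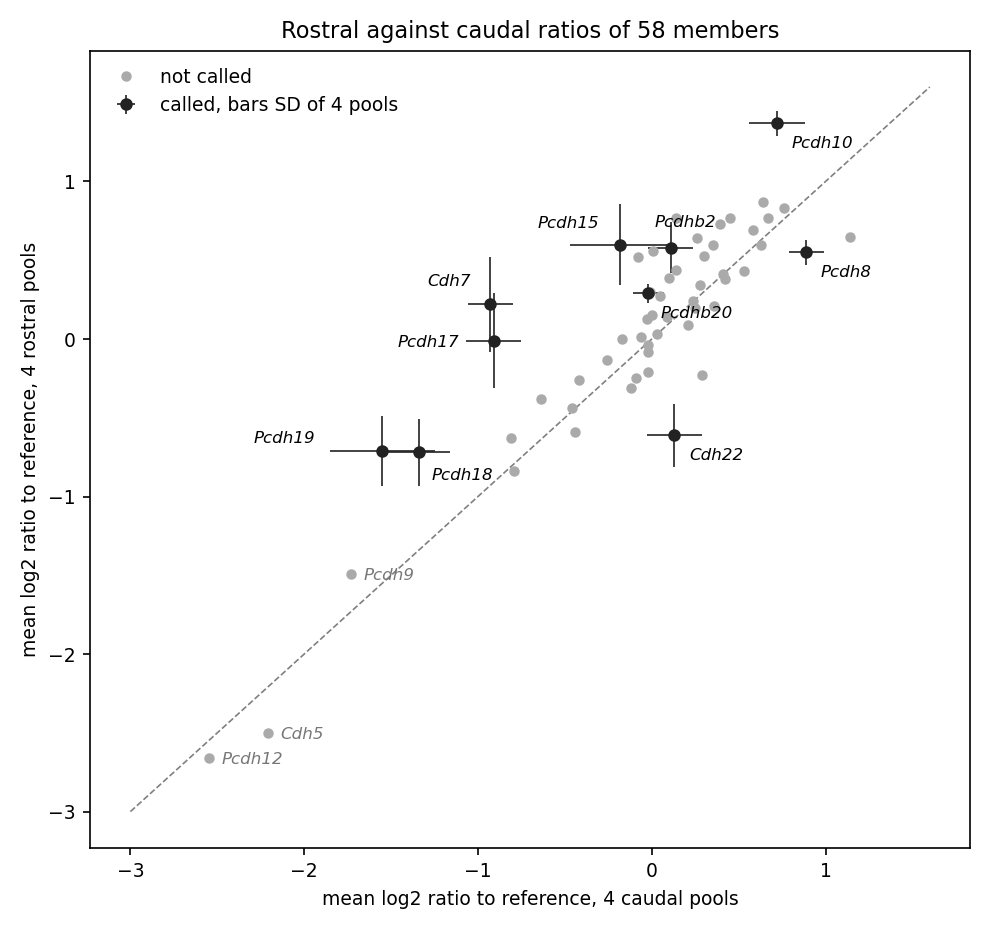
Mean log2 ratio to the reference in 4 rostral pools (vertical axis) against that in 4 caudal pools (horizontal axis) for the 58 members tested between the parts; the dashed line marks equal ratios. Black points with SD bars are the 10 called members, of which Pcdh8 and Cdh22 lie below the line; grey Cdh5, Pcdh12 and Pcdh9 sit low in both parts.

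Pcdh15, a protocadherin of hair cell tip links, was at 0.42, 0.43, 0.97 and 0.59 in rostral pools and at -0.11, -0.25, 0.17 and -0.53 in caudal pools. The brightest probe gave a 1.72-fold difference (0.79, SE 0.18, adjusted p = 0.0348). Its probes disagreed. Another table probe, well above background in 6 of 8 pools, gave -0.13 (SE 0.15), and the mean over the table's 4 probes was 0.28 (adjusted p = 0.428). Without 1 pool the call held in 2 of 8 cases. Pcdhb2 (0.48, SE 0.12, adjusted p = 0.0492) and Pcdhb20 (0.31, SE 0.07, adjusted p = 0.0336) were the clustered members on the rostral side. Without 1 pool, Pcdhb2 was called in 0 of 8 cases and Pcdhb20 in 1. Pcdhb2 was above background in 3 rostral and 2 caudal pools, and its difference was 1.66 (adjusted p = 0.208) in the Feature Extraction processed signals. In contrast, Cdh7, Cdh22, Pcdh8, Pcdh10, Pcdh17, Pcdh18 and Pcdh19 remained called without any 1 pool, rostral pool 2 included.

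The arrays lay in 2 rows of 1 slide, with 2 pools of each part in each row. Within row 1 and within row 2, 0 members passed the adjusted threshold in limma, while 15 and 11 had an unadjusted p below 0.05. The differences kept their sign in both rows: Cdh7 was at 0.96 in row 1 and 1.33 in row 2, Cdh22 at -0.96 and -0.52, Pcdh10 at 0.57 and 0.72, Pcdh17 at 0.96 and 0.82, Pcdh18 at 0.59 and 0.66, Pcdh19 at 0.75 and 0.92, and Pcdh8 at -0.34 and -0.35. Pcdh15 was at 0.61 in row 1 and 0.96 in row 2, Pcdhb2 at 0.53 and 0.43, and Pcdhb20 at 0.38 and 0.24. The log2 difference moved by over 1.5 times between rows for Cdh22, Pcdh15 and Pcdhb20. With the row as a block Pcdhb2 was no longer called (adjusted p = 0.07), and the other 9 were.

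The clustered protocadherins, 35 members on chromosome 18, rose more often than they fell against the reference (median 0.27). So did general neuronal genes. Of 6 pan-neuronal markers (Tubb3, Snap25, Stmn2, Elavl4, Dcx and Map2) 5 rose and 1 fell, with a median of 0.49. The part of neuronal content in the clustered values was not tested. Of 6 tested alpha members 4 rose and 0 fell (median 0.55), but 4 of the 6 were dim in the reference and entered the test through the sample channel; of the other 2, Pcdha4 rose and Pcdha9 was not called. Of 19 beta members 12 rose and 1 fell (median 0.24), and of 5 gamma members 2 rose and 2 fell (median 0.16). With the offset, none reached 2-fold at its table probe. In the processed signals of Feature Extraction, without an offset, the alpha median was 1.54, with Pcdha8 at 2.62 and Pcdha4 at 1.54, and among beta members Pcdhb2 was at 1.68 and Pcdhb15 at 1.00. Under median centring, where the median of all genes moved to 0.13 and 61.5% of all called genes were higher in place of 48.4%, the clustered members rose for 21 and fell for 3 of 30 with a median of 0.29 above that of all genes, and the gamma median lay at -0.03 relative to it.

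Pcdha4 was at 1.00, 1.02, 1.00 and 0.31 in rostral pools and at 0.70, 0.96, 0.50 and 0.88 in caudal pools. All pools were above the reference (1.73-fold, 0.79, SE 0.10), which was itself well above background on 4 of 8 arrays; the probe also matches a neighbouring predicted gene, Gm37013. Pcdha12 ranged from 0.27 to 1.66 in rostral pools and from 0.32 to 0.92 in caudal pools (0.75, SE 0.14), with the reference above background on 1 of 8 arrays. Pcdha8 rose by 0.61 (SE 0.12), a fitted 1.53-fold. Its reference signal was dim on every array, so the size is poorly measured. A probe outside the table, above background throughout, gave 1.30. Of the C-type isoforms, which neurons express without the random choice made among the others, Pcdhac2 rose by 0.48 (SE 0.14) at a table probe with a dim reference. Its brighter probe outside the table gave 0.22 over the reference and 0.55 between the parts (SE 0.07, adjusted p = 0.00479 over all probes), with 0.37 to 0.64 in rostral pools and -0.12 to 0.02 in caudal pools, whereas the table probe gave -0.10 (adjusted p = 0.936). The parts did not overlap at the outside probe and overlapped at the table probe. The outside probe was far brighter, with a mean log2 signal of 15.94 in the pools against 6.99 at the table probe. Whether it, or the outside probe of Pcdha8, also matches other alpha isoforms was not checked. Its difference between the parts therefore cannot be assigned to Pcdhac2 alone.

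Among the beta members Pcdhb4 was highest, at 0.67, 0.62, 0.53 and 0.95 in rostral pools and at 0.56, 0.83, 0.67 and 0.28 in caudal pools (1.56-fold, 0.64, SE 0.07). Pcdhb15 (0.62, SE 0.08) and Pcdhb6 (0.56, SE 0.09) followed. All 8 pools lay above the reference for each of these genes. The other 9 beta members that rose, Pcdhb2, Pcdhb3, Pcdhb7, Pcdhb12, Pcdhb13, Pcdhb16, Pcdhb20, Pcdhb21 and Pcdhb22, lay between 0.13 and 0.48. Pcdhb5 alone of the tested beta members fell (-0.34, SE 0.11). Between the parts 14 of 19 beta members had a positive difference, as did 9351 of all 18099 genes, and 2 of the 19 were called. Just outside the threshold were Pcdhb16 (0.60, SE 0.15, adjusted p = 0.0509) and Pcdhb22 (0.55, SE 0.15, adjusted p = 0.0558). Pcdhb16 was at 0.65, 0.08, 0.61 and 0.76 in rostral pools and at -0.13, -0.15, -0.04 and 0.01 in caudal pools. Among gamma members Pcdhga10 rose by 0.45 (SE 0.16) and Pcdhgb1 by 0.41 (SE 0.09), while Pcdhga1 fell by 0.51 (SE 0.09). Pcdhga10 ranged from 0.04 to 1.39 in rostral pools and from -0.35 to 0.80 in caudal pools. It was above background in 5 of 8 pools and dim in the reference throughout, so its size is poorly measured. The probe listed for Pcdhga9 fell by 0.20 (SE 0.03) but matches 4 gamma isoforms (Pcdhga1, Pcdhga5, Pcdhga6 and Pcdhga9), so its value is shared by them. Clustered isoforms are close copies, and cross-hybridisation between them was not tested.

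**Figure D4:**
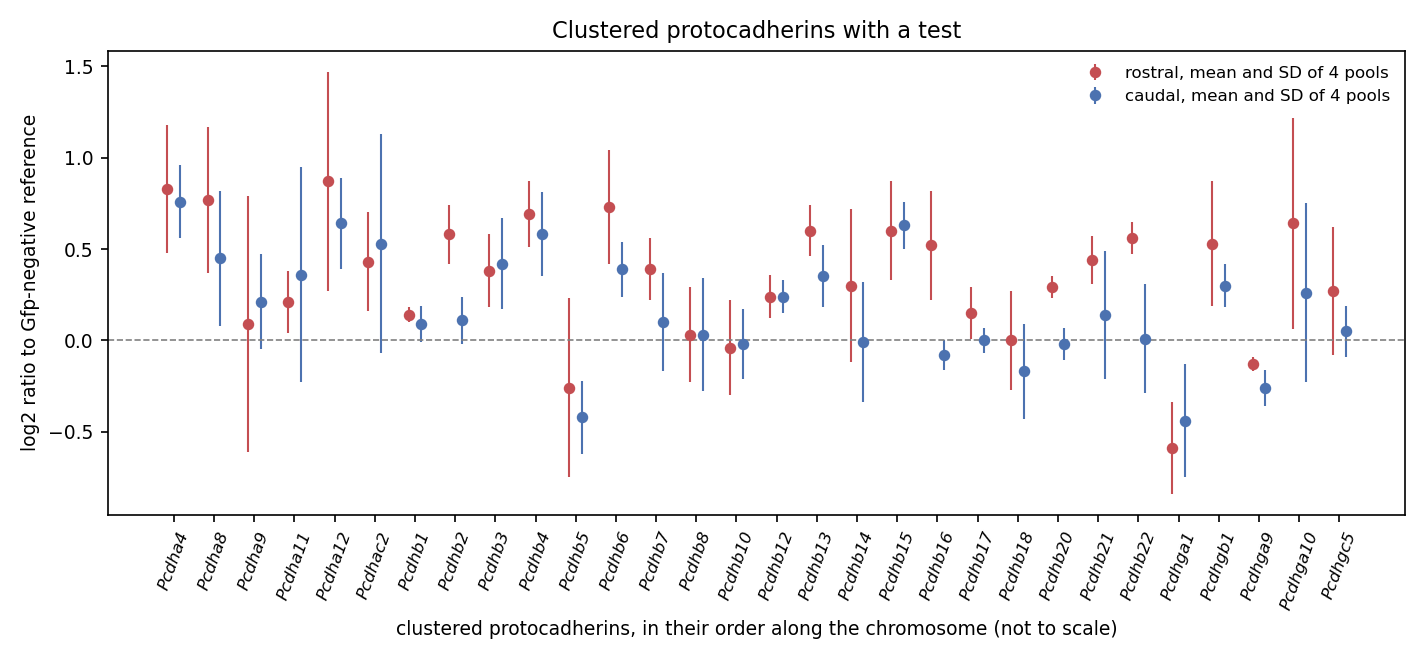
Log2 ratio to the Gfp-negative reference (vertical axis) of the 30 tested clustered protocadherins in their order along the chromosome, not to scale (horizontal axis), as mean and SD of 4 rostral pools in red and 4 caudal pools in blue. Most points lie above 0; the 3 called falls, Pcdhb5, Pcdhga1 and Pcdhga9, and the uncalled Pcdhb10 lie below it in both parts, and the rostral mean of Pcdhb2 is 0.58 against a caudal mean of 0.11.

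Several members are neighbours in the genome, by the order of protein-coding genes in RefSeq. Pcdh10 and Pcdh18 lie on chromosome 3 with 1 such gene between them; against the reference Pcdh10 was at 1.04 and Pcdh18 at -1.03, and both were higher in rostral pools. On chromosome 14, Pcdh8 and Pcdh17 have 1 gene between them, Pcdh17 and Pcdh20 have 2, and Pcdh20 and Pcdh9 are adjacent. Their ratios to the reference were 0.72, -0.46, -2.79 and -1.61 in that order, so the first of them rose and the others fell. Cdh6, Cdh9, Cdh10 and Cdh12 are adjacent on chromosome 15, where the first 3 rose and Cdh12 fell. Cdh7 and Cdh19 are adjacent on chromosome 1, and Cdh19 was not well above background on any array.

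Partners of the family inside and outside the cell were read from the same fits. These fits called 71.5% of all genes against the reference (34.6% higher and 36.9% lower) and 6.30% between the parts. Whether any list of partners departs from these shares was not tested. Of 6 tested catenins 4 rose and 1 fell. Ctnna1 (alpha-E-catenin), the link from cadherins to actin, was at 0.20, 0.71, 0.01 and 0.71 in rostral pools and at 1.57, 1.26, 1.38 and 1.45 in caudal pools. It rose over the reference (0.91, SE 0.08) and was the catenin called between the parts, 2.01-fold lower in rostral pools (-1.01, SE 0.16, adjusted p = 0.00627). Its neuronal relative Ctnna2 rose by 0.41 (SE 0.03), with a rostral minus caudal difference of 0.16 that did not pass the test (adjusted p = 0.251). Ctnnb1 (beta-catenin) fell by 0.64 (SE 0.03), in all 8 pools, between -0.83 and -0.65 in rostral pools and between -0.60 and -0.47 in caudal pools. The delta-catenin Ctnnd2 rose by 0.21 (SE 0.03).

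Of 16 cadherin-domain genes outside the naming pattern, 8 rose and 4 fell, where 71.5% of all genes were called. Between the parts 1 was called, against 6.30% of all genes. Celsr1, a planar polarity cadherin of progenitors, fell by 3.07 (SE 0.08) and Celsr3, its relative in axon tract formation, rose by 0.61. Fat1, a giant cadherin of radial glia, was at -0.86, -1.17, -1.08 and -1.08 in rostral pools and at -1.66, -1.75, -1.40 and -1.79 in caudal pools; it was below the reference throughout and higher in rostral than in caudal pools (0.60, adjusted p = 0.00686). The synaptic calsyntenin Clstn2 rose by 1.48 and Cdhr1, a photoreceptor cadherin, by 1.03. Nectins, adhesion proteins that join cadherin junctions, fell for 3 of 4 genes of their list and rose for 0: Nectin3 was at -1.40, Nectin2 at -0.88 and Nectin1 was 1.99-fold lower, while afadin (Afdn) was not called (-0.09).

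Of 11 WAVE complex genes and kinases downstream of protocadherins, 6 rose and 3 fell, with 0 called between the parts by limma (3 at an unadjusted p below 0.05). For this list and the lists below, the shares over all genes were 71.5% called against the reference and 6.30% between the parts. Cyfip2 rose by 0.56 and its paralogue Cyfip1 fell by 0.71; Nckap1, which delta-2 protocadherins bind, rose by 0.65. The protease gene Adam10, the main cadherin sheddase, was not called (-0.07, adjusted p = 0.18), while Adam17, a related sheddase, fell by 0.41 and Furin, a protease that matures cadherin precursors, fell by 0.76. Of 10 genes that act in promoter choice of the protocadherin clusters, 6 rose and 1 fell, all within 0.51 of the reference; Smchd1, a silencer of the clusters, was at 0.18, Ctcf at 0.02 (adjusted p = 0.639) and the DNA methyltransferase gene Dnmt3b at -0.40. Repressors of Cdh1 rose for 1 (Twist1, 0.48) and fell for 2 (Snai1, -0.45, and Snai2, at -1.53 to -0.57 in rostral and -1.92 to 0.44 in caudal pools) of 5. In these last 2 lists 0 genes were called between the parts by limma, 0 of the cluster genes and 2 of the repressors having an unadjusted p below 0.05.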

How the data were processed

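The deposited scanner files give, for 2 channels, the median intensity of each spot and of its local background. The file headers name Agilent Feature Extraction, version 10.7.3.1. The same software added processed intensities (background subtraction, then a lowess dye correction, per the file headers) and flags of 0 or 1 per spot, other deposited columns, for signal above background. The submitters' processing notes list RMA without saying where it was applied. Of the deposited table, only the probe annotation was used, since its 8 value columns match no sample label.

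In R 4.3.3 with limma 3.58.1, intensities were corrected by normexp (offset 50), normalized by loess within arrays and turned into log2 ratios of sample over reference. Summed signals and signals of single channels were taken after a further quantile scaling of mean intensities between arrays (Aquantile), with the offset included. Spots of a probe were averaged. Symbols came from the table for members, and for other genes from RefSeq (GRCm38.p6), matched by accession, or the table. Ratios were tested with lmFit and eBayes with an intensity trend: mean over the 8 pools against 0, and rostral minus caudal, without a block. All p-values are 2-sided. Script steps were tested on simulated data.

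The members, lists and the rule for named genes were chosen with earlier results of these data known. Named were members called between the parts, the 10 largest rises and falls, disagreeing probes, and Cdh1, Cdh2, Cdh5, Cdh11 and the delta-2 genes; others named were chosen after their values were seen. Same-numbered rostral and caudal pools showed no shared deviation (correlations of -0.07 to 0.02). This cannot show whether they came from the same embryos, and the labels state no pairing, so the main fit has none. Alternatives were the Feature Extraction processed signals, median centring, other filters on dim probes, the mean over probes, no intensity trend, blocks, each slide row and each pool left out; probes matched by accession outside the table were added after the data were seen. The number of arrays limits the precision. A gene of the shedding and processing list, and counts over that list, are not reported here.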

Additional observations from a re-analysis of the deposited data

Results flagged for a closer look

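In 9 of 120 sets of 4 pools, 1 pool stood far from the other 3, where chance flags about 1 in 20, or 6. Caudal pool 4 was at -4.74 for Pcdh12, against -1.98 to -1.68 in the other caudal pools. Caudal pool 3 was at -0.67 for Pcdh17 (others -1.01 to -0.96) and at 0.22 for Pcdhb18 (others -0.31 to -0.28). Caudal pool 2 was at -0.07 for Cdh16 (others 0.33 to 0.39), at 1.24 for Pcdha11 (others 0.04 to 0.08) and at 0.13 for Pcdhgb1 (others 0.35 to 0.37). Caudal pool 1 was at -0.39 for Pcdhb21 (others 0.29 to 0.34) and at -0.90 for Pcdhga1 (others -0.33 to -0.23). Rostral pool 4 was at 0.31 for Pcdha4 (others 1.00 to 1.02). The ratios to the reference differed between rostral and caudal pools, by the test of the difference itself, for Cdh7 (1.15), Pcdh17 (0.89), Pcdh19 (0.84), Pcdh15 (0.79), Pcdh10 (0.65), Pcdh18 (0.62), Pcdhb2 (0.48), Pcdhb20 (0.31), Pcdh8 (-0.34) and Cdh22 (-0.74).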

How the results depend on the processing

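Through the alternatives 28 members were followed, and none of their called values changed sign. Of the uncalled values, that of Cdh11 against the reference did (0.05, and -0.06 under median centring), as did 11 between the parts. Members called against the reference numbered 44, and 34 to 49 under the alternatives (42 to 46 without 1 pool). Between the parts 10 were called, and 7 to 12 over all pools, 7 to 9 without 1 pool, and 0 within each slide row, where only 2 pools of each part remain. Over all genes 1140 were called between the parts, and 723 with the replicate block (680 shared), 716 without caudal pool 1, 751 without caudal pool 4, and 0 and 185 within slide rows 1 and 2 (2383 and 2482 at an unadjusted p below 0.05). The replicate block left 7 members called between the parts (5 higher and 2 lower), losing Pcdh18, Pcdhb2 and Pcdhb20, and 46 against the reference. Whether the numbers pair the pools is not known. Probes matched by accession, added after the data were seen, gave 11 between the parts and 46 against the reference. Dim probes limit the sizes given for Cdh1, Pcdh20, Pcdhb2 and the alpha and gamma isoforms.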
